A study of Mus musculus with 8 samples.

Results

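Mouse small-intestinal organoids labelled Tcf7l2 null were compared with organoids transduced with dsGFP, the control of the same experiment. Of the 8 arrays in the series, 2 form this comparison: 1 array with Tcf7l2 null RNA in Cy5 against dsGFP RNA in Cy3, and 1 self-self array of the same slide with dsGFP RNA in both colours. The difference for each probe was its log2 ratio on the Tcf7l2 null array minus its log2 ratio on the self-self array, so that a dye effect of the probe is taken off. The condition has 1 array and no replicate; no test, SD or p-value is given, and every value describes these 2 hybridisations.

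Organoids are epithelial structures grown from crypts, with budding crypt domains and a differentiated lining. Both cultures received a 16 h pulse of 4OH-tamoxifen. Per the labels it was given to delete Tcf7l2 in one and to switch on GFP in the other. The labels name no transduction for the Tcf7l2 null organoids, so an effect of the GFP construct and an effect of the deletion cannot be told apart. The Cre driver, the deleted exons, the number of lines and the time from pulse to harvest are not given in the sources used here for this condition. Other arrays of the series carried organoids labelled as overexpressing or lacking Ascl2, and 2 of them, from the same slide and against the same control, are set beside this one at the end.

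Tcf7l2, also called TCF4, is a DNA-binding factor that recruits beta-catenin to Wnt target genes. In the intestine Wnt signals act on the crypt base, where they maintain stem cells and Paneth cells, while cells that leave the crypt stop dividing and become absorptive or secretory. Deletion of Tcf7l2 in mice is known to deplete the dividing crypt cells.

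Over 14432 genes whose probe was well above background in all 4 channels, the difference had a median of 0.0008 and an SD over genes of 0.36. The self-self ratio itself had an SD over genes of 0.19. In the Tcf7l2 null organoids 96 genes were at least 2-fold higher (0.665% of those measured) and 106 were at least 2-fold lower (0.734%). On the self-self array alone 3 genes passed 2-fold. A second technical yardstick is the self-self array of another experiment minus this one, a pair that holds no Tcf7l2 null RNA but spans 2 slides and 2 controls: there 165 of 14416 genes were 2-fold higher (1.14%) and 13 lower (0.0902%). With the scanner software's own ratio the counts in Tcf7l2 null organoids were 204 and 310, and with the authors' deposited values 208 and 317; the pair of self-self arrays was not counted on those scales. The description rests on gene groups and on genes whose channels stand clear of one another. Over all genes 50.1% of differences were above 0 and 49.9% below. The Tcf7l2 null channel was brighter than all 3 dsGFP channels of the 2 arrays for 35.6% of genes and dimmer than all 3 for 37.2%. The labels do not say that these dsGFP channels came from separate cultures, so they are technical readings of the control.

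**Figure D1:**
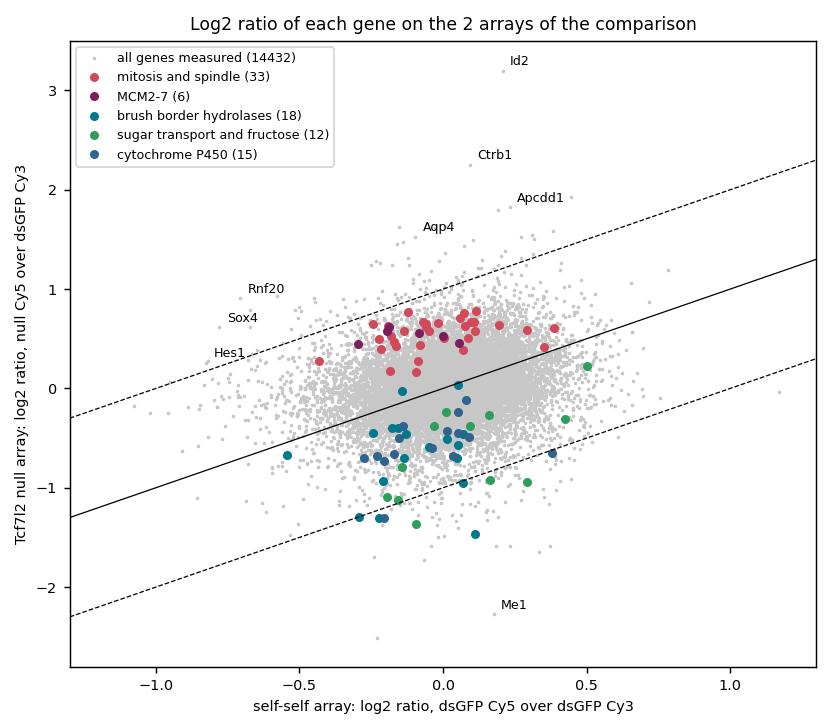
Log2 ratio on the Tcf7l2 null array against log2 ratio on the self-self array, 1 point per gene; the solid line marks no difference and the dashed lines a 2-fold difference. The 33 mitosis genes and the 6 MCM genes lie above the solid line, the 12 sugar transport and 15 cytochrome P450 genes below it, and Id2 and Me1 stand at 3.20 and -2.27 on the vertical axis.

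The targeted gene was examined first. Its 3 probes were well above background in both channels of every array. The probe nearest the 5′ end of the transcript (mm9 chr19:55982975-55983034, from transcript position 1077) is shown, since the others lie further 3′ at positions 2368 and 3494:
Tcf7l2 probe: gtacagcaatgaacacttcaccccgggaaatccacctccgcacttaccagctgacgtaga
Its ratio was -0.10 with Tcf7l2 null RNA and -0.20 in the self-self hybridisation, a difference of 0.10. A second probe differed by -0.03. Both were dim on the Tcf7l2 null array, with mean log2 intensities before scaling between arrays of 7.06 and 6.85, against 10.99 for the third. Changes of dim spots come out too small with this processing, so a fall in these 2 probes would be hard to see. The third and brightest had ratios of -0.35 and 0.37, a difference of -0.72, with log2 intensities of 10.67 in the Tcf7l2 null channel and 11.02, 11.61 and 11.24 in the dsGFP channels. That probe also read -0.34 on the self-self array of the other experiment, so its own technical swing is about as wide as its difference here. The deleted exons are not known and a probe outside them could still read signal, so the 3 probes neither show nor check the deletion.

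TCF/LEF factors and beta-catenin partners went both ways. Of 16 on the list, Tcf7l2 included, 13 were measured, with a median difference of 0.14, 8 of them above 0, 2 above 0.5 and 3 below -0.5. Tcf7, the other TCF factor measured, differed by 0.15 and Ctnnb1, which encodes beta-catenin, by 0.27. The co-repressor Tle4 was at -0.51 and Ctnnbip1, an inhibitor of beta-catenin binding, at -0.50, whereas Pygo2, a co-activator, was at 0.78 with a self-self ratio of -0.47. Tcf7l1 and Lef1 were not well above background.

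Wnt target genes were mixed. Of 31 feedback and direct target genes 21 were measured, 14 of them above 0, with a median of 0.33. Id2, an inhibitor of basic helix-loop-helix factors, had the highest difference of all genes. Its log2 intensity was 12.19 in the Tcf7l2 null channel against 8.99, 9.24 and 9.04 in the 3 dsGFP channels. This gave a difference of 2.99, or 7.96-fold, and its second probe gave 2.20. Apcdd1, a Wnt inhibitor at the cell membrane, had 9.47 against 7.64, 8.14 and 7.90, a difference of 1.59. Axin2, a feedback scaffold of the beta-catenin destruction complex, had 9.43 against 8.83, 8.97 and 8.79, a difference of 0.42. Both genes were above every control channel, Apcdd1 by much more than Axin2.

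Further targets lay on both sides of 0. Myc was at 0.78 with a self-self ratio of -0.42, Cd44 at 0.74, Cdx1 at 0.71, Ephb2 and Ephb3 both at 0.54, Ccnd1 at 0.46 and Sox9 at 0.33. In contrast Ascl2, a stem cell factor that responds to Wnt, read 8.05 against 8.62, 8.71 and 8.70 and was lower by 0.58 on the log2 scale (-0.58). Sp5, a transcription factor induced by Wnt, was at -0.56, while Rnf43 and Nkd1 were at -0.02 and -0.11. Znrf3, a ligase that removes Wnt receptors, was at -0.33. Its Tcf7l2 null channel (8.82) lay within its control channels, 8.61 to 8.93. Ascl2 and Sp5 thus went the other way from Id2 and Apcdd1 within 1 list. Among ligands and receptors 12 of 17 were above 0 (median 0.15), led by Lrp5 at 0.69, Fzd2 at 0.65 and Wnt9b at 0.63, with Lgr4 at -0.48.

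Crypt base columnar stem cell markers were for the most part higher. Of 24 measured members 17 were above 0 (median 0.41), and in 18 the Tcf7l2 null channel was brighter than all 3 dsGFP channels. Olfm4, a secreted glycoprotein of these cells, read 13.65 against 12.86, 12.86 and 12.85, a difference of 0.79. Lgr5, the R-spondin receptor that marks them, read 10.16 against 9.58, 9.81 and 9.60, a difference of 0.38. Smoc2 read 12.10 against 11.45, 11.38 and 11.46, a difference of 0.72. These 3 markers were each above every control channel, by under 2-fold. Aqp4, a water channel, was the largest in the list at 1.62, and its 3 probes ranged from 1.43 to 2.02. Clca3b was at 0.98 and Slc12a2, a chloride cotransporter, at 0.83. On the lower side were Msi1, an RNA-binding protein, at -0.73, Ascl2, and Esrrg at -0.52.

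Genes of DNA replication and mitosis lay almost wholly on the higher side. The 6 MCM2-7 genes, subunits of the replicative helicase, ranged from 0.41 (Mcm4) to 0.81 (Mcm2) with a median of 0.69, and the Tcf7l2 null channel was above all 3 dsGFP channels in 6 of 6. For Mcm2 it read 10.92 against 10.30, 10.16 and 10.35, and for Mcm7 13.62 against 13.04, 12.97 and 13.17. None reached 2-fold. The sequences below are those before the start sites of the 3 MCM genes with an E2F-type match there, shown because the 6 genes lay on the same side and E2F factors are known regulators of replication genes. The letters searched were TTTGGCGC and TTTCCCGC on both strands; matches are in capitals, in 250 bases 5′ to 3′ up to the start, from RefSeq's GRCm38.p6 table. Mcm5 lies at chr8:75109259-75109508 (plus strand), Mcm6 at chr1:128359706-128359955 (minus) and Mcm7 at chr5:138171884-138172133 (minus).
Mcm5: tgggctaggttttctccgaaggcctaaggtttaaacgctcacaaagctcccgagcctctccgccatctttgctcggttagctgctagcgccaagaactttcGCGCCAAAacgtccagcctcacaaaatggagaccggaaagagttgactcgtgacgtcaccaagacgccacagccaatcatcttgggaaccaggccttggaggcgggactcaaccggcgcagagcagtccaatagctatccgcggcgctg
Mcm6: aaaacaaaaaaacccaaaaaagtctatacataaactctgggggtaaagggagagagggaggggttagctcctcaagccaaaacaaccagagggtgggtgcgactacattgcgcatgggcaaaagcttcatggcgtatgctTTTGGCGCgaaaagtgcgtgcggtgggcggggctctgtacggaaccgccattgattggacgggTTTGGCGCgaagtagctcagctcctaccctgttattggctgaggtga
Mcm7: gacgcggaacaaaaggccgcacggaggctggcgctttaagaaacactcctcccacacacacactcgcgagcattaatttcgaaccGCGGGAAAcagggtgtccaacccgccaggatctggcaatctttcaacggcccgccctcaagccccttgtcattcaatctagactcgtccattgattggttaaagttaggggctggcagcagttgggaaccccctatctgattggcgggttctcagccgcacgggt
Mcm6 held a pair of matches, 110 and 47 bases before its start, Mcm5 held 1 at 149 bases and Mcm7 held 1 at 165 bases. In these windows no match overlapped the other motifs searched. In the table's windows, which run from 250 bases before to 50 after the start, 4 of the 5 MCM promoters listed held E2F letters, against 1.63% of all 27025 promoters and 2.94% of those of measured genes. All 5 held CCAAT on either strand, against 37.9% of all promoters. Mcm4 is the member not listed. A match describes letters and shows no binding.

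The 33 measured genes of mitosis and the spindle were all above 0, from 0.06 (Cenpe) to 0.90 (Ube2c), with a median of 0.61 and 23 of them above 0.5. In 33 of 33 the Tcf7l2 null channel was above all 3 dsGFP channels. Ube2c, a ubiquitin-conjugating enzyme of mitotic exit, read 12.13 against 11.35, 11.19 and 11.31. Top2a, the topoisomerase that resolves sister chromatids, read 10.15 against 9.50, 9.38 and 9.62, a difference of 0.89. Ccnb1, a mitotic cyclin, differed by 0.68, Cdk1 by 0.67, Plk1 by 0.73, Bub1b by 0.82, Aurka by 0.42 and Mki67 by 0.36. No member of the list reached 2-fold: the group held many differences of moderate size and no single large one. CCAAT letters were in 20 of the 27 mitosis promoters listed (74.1%), E2F letters in 0 and TCF/LEF letters (CTTTGAA or CTTTGAT) in 4 (14.8%). Among promoters of measured genes the shares were 39.2%, 2.94% and 6.31%, and no test was made.

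The rest of the replication machinery followed at lower values. Origin licensing and firing genes had a median of 0.27 with 17 of 18 above 0, led by Tipin at 0.74 and Orc6 at 0.63. Polymerases, clamp and clamp loaders had a median of 0.37 with 23 of 25 above 0, led by Chaf1a at 0.78 and Rfc4 at 0.75, with Pcna at 0.45. Of 8 genes for nucleotide supply 6 were above 0 (median 0.38), among them Tk1 at 0.71 and Tyms at 0.51. Among 14 G1 genes 11 were above 0 (median 0.32). Ccnd2 was at 0.89 and Cdk4 at 0.77, whereas E2f3, E2f2 and Rb1 were at -0.40, -0.29 and -0.32. Of 6 cyclin-dependent kinase inhibitors 4 were above 0, from Cdkn2b at -0.41 to Cdkn1b at 0.43.

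Chromatin genes of dividing cells were for the most part higher as well. Of 58 histone genes 25 were measured and 19 were above 0 (median 0.53); H1f5, a linker histone, was the third highest of all genes, at 10.66 against 9.04, 9.03 and 9.18 (1.78). The H4 genes H4c14, H4c6 and H4c4 were at 0.95, 0.89 and 0.87, while H2ac18 was at -0.62. Most H2B genes measured had differences below 0: H2bc14, H2bc4, H2bc1 and H2bc12 were at -0.44, -0.43, -0.40 and -0.40, against H2bc21 at 0.40. For H2bc14 (12.68) and H2bc4 (12.15) the Tcf7l2 null channel lay within the control channels. Only for H2bc1 and H2bc12 did it lie below every control channel. Near-identical histone copies can share a probe, so single members are uncertain. All 11 lamin and HMG genes were above 0 (median 0.48). Lmnb1, a lamin of the nuclear envelope, read 11.40 against 10.16, 9.96 and 10.21 (1.49) and Hmgb2 15.08 against 14.20, 13.94 and 14.04 (0.97), whereas Lmna was at 0.08.

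Ribosome genes stood on the same side. Of 27 Myc and nucleolar genes 26 were above 0 (median 0.45). The other experiment's self-self array minus this one, which holds no Tcf7l2 null RNA, gave this list a median of 0.23. Ncl, which encodes nucleolin, read 15.80 against 14.98, 14.49 and 14.99, a difference of 1.32 with a self-self ratio of -0.50. Npm1, fibrillarin (Fbl) and Nop58 were at 0.99, 0.97 and 0.97. Odc1, a Myc target of polyamine synthesis, was at -0.25. Of 71 cytosolic ribosomal protein genes 68 were above 0, with a median of 0.41, Rpl7 at 1.36 and Rps7 at 1.02 leading. With median centring in place of loess the list's median was 0.19. In the other experiment's self-self array minus this one it was 0.01. Rpl7 read 16.99 against 15.62, 16.60 and 16.59, and Rps7 17.07 against 15.87, 16.57 and 16.39. Part of these 2 differences thus came from a low dsGFP channel on the same array. Ribosomal protein genes have many near-identical pseudogene copies, and single members are uncertain. Serine, folate and one-carbon genes, which feed nucleotide synthesis, were above 0 in 12 of 13 (median 0.52). They were led by Atic at 0.92 and Gart at 0.80, with Cth at -0.77. Their median was 0.19 in the other experiment's self-self array minus this one.

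**Figure D2:**
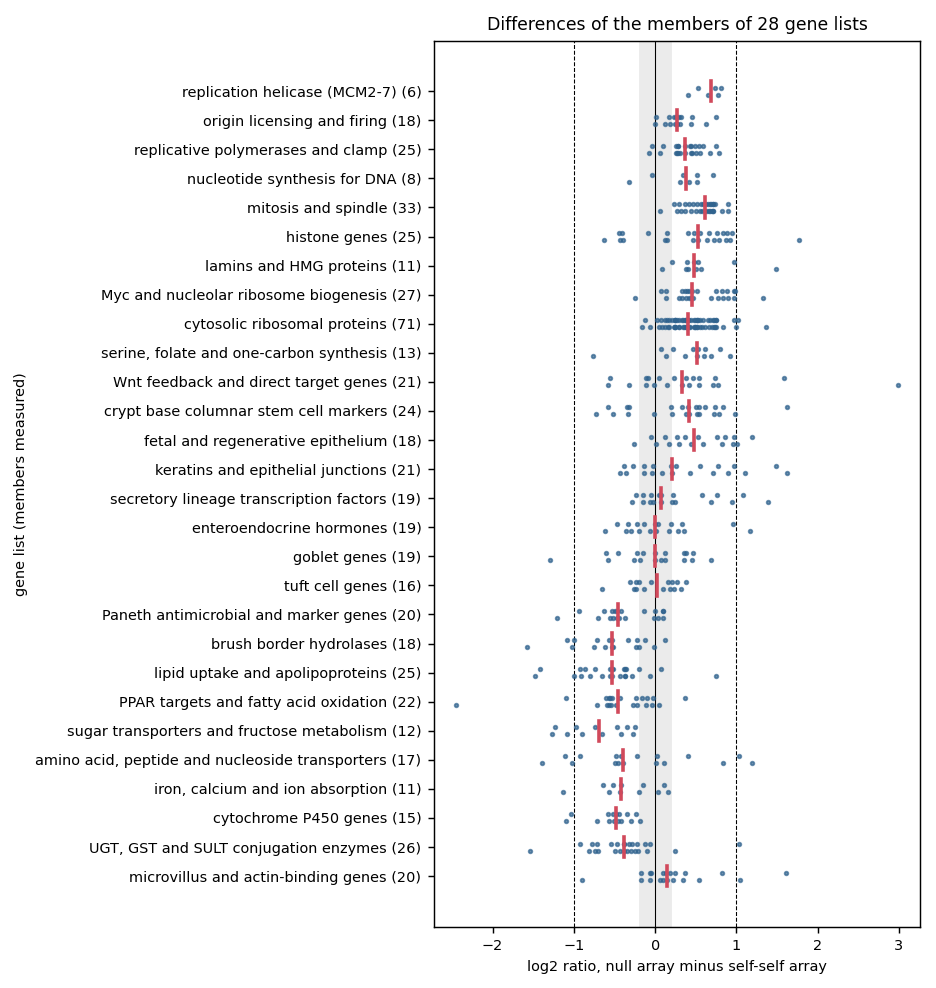
Difference between the Tcf7l2 null array and the self-self array for each measured member of 28 gene lists (points) with the list's median (bar); the grey band is 1 SD over genes of the self-self ratio (0.19) and dashed lines mark 2-fold. Medians of the replication, mitosis, chromatin and ribosome lists lie between 0.27 and 0.69, and those of the absorptive lists plotted, apart from microvillus genes, between -0.69 and -0.39.

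Genes of absorptive enterocytes were lower for most of the functions examined. For brush border hydrolases, the enzymes that finish digestion at the cell surface, 17 of 18 measured genes were below 0 (median -0.53) and the Tcf7l2 null channel was below all 3 dsGFP channels in 16. Asah2, a neutral ceramidase, was lowest at -1.58, although its 3 probes spread from -1.58 to -0.10. Dpep1, a dipeptidase, read 12.10 against 13.40, 13.39 and 13.61 (-1.08). Ggt1, which breaks down glutathione, was at -1.02. Sis, sucrase-isomaltase, read 16.98 against 17.44, 17.03 and 17.16 (-0.33) and Anpep, aminopeptidase N, 14.31 against 15.01, 14.82 and 14.95 (-0.56). Sis and Anpep thus differed less than Dpep1 and Ggt1, and Alpi, intestinal alkaline phosphatase, was at -0.13.

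Sugar transport and fructose genes were lower in 12 of 12, with the lowest median of these lists (-0.69). Slc5a4b and Slc5a4a, members of the sodium-glucose family, were at -1.27 and -1.09. Slc2a5, the apical fructose transporter, read 14.85 against 15.79, 15.85 and 15.55 (-1.23). Slc5a1, the main sodium-glucose transporter, read 14.24 against 14.61, 14.50 and 14.53 (-0.35), and the basolateral Slc2a2 was at -0.65. Of the enzymes Fbp1 was at -0.97 and Khk at -0.42.

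Lipid absorption genes were below 0 in 23 of 25 (median -0.53). Abca1, a cholesterol exporter, read 7.62 against 9.12, 9.01 and 9.03 (-1.48). Fabp1, a fatty acid binding protein, had a difference of -1.42, but its Tcf7l2 null channel (16.53) lay within the control channels, which themselves ran from 16.50 to 17.56. Fabp2 read 16.84 against 17.40, 17.09 and 16.85 (-0.80). Cd36, a fatty acid receptor, was at -0.99, Mogat2 and Dgat2, enzymes of triglyceride synthesis, at -0.93 and -0.92, and Apoc3 at -0.86. Mttp, which loads lipid onto chylomicrons, was at -0.56 and Apob at -0.37. Scarb1, the lipoprotein receptor SR-BI, went the other way at 0.75. With the mean of both self-self arrays subtracted, the median of this list was -0.76.

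Of 22 PPAR target and fatty acid oxidation genes 20 were below 0 (median -0.46). Me1, cytosolic malic enzyme, had the lowest difference of any gene: 8.29 in the Tcf7l2 null channel against 10.57, 10.65 and 10.48, a difference of -2.45 or 5.46-fold, with a second probe at -1.90. Its probe lies at mm9 chr9:86475291-86475347. Acot2 was at -1.10 with a self-self ratio of 0.61, but its Tcf7l2 null channel (8.09) lay within its control channels, which ran from 7.21 to 8.58. Cpt2 was at -0.61 and the receptor Ppara at -0.54. Cpt1a, Hadha and Hadhb were at -0.16, -0.03 and -0.10, so oxidation genes were not lower in step.

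Detoxification genes showed the same side. All 15 cytochrome P450 genes measured were below 0 (median -0.49); Cyp3a11 read 14.16 against 15.46, 15.19 and 15.39 (-1.10) and Cyp2d26 was at -1.04. Conjugation enzymes were below 0 in 24 of 26 (median -0.39), from Ugt1a9 at -1.54 and Mgst1 at -0.93 to Sult1c2, a sulfotransferase, at 1.04. Ion absorption genes were below 0 in 8 of 11 (median -0.42, or -0.20 with the median over each gene's probes), with the sodium-proton exchanger Slc9a3 at -1.14 and the iron importer Slc11a2 at -0.64.

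Amino acid, peptide and nucleoside transporters split by member. Of 17 measured 10 were below 0. Slc28a3, a nucleoside transporter, was at -1.39, the imino acid transporter Slc6a20a at -1.12, Slc7a8 at -1.02 and Slc6a19, the main neutral amino acid transporter, at -0.93. The glutamate transporter Slc1a1 was at 1.20 with both probes above 1, the nucleoside transporter Slc28a2 at 1.03 and the glutamine transporter Slc1a5 at 0.83.

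The structural and regulatory side of the enterocyte did not follow the digestive genes. Of 20 microvillus and actin-binding genes 14 were above 0 (median 0.14). This sign turned when the self-self array was not subtracted (-0.13) or when both self-self arrays were (-0.13). Vil1, villin, was at -0.06 and Myo1a, a brush border myosin, at -0.05. Pls1, a microvillus bundling protein, was at -0.90, while Tmsb4x, which binds actin monomers, was at 1.61 and Actg1 at 1.05. Differentiation transcription factors were divided 12 to 12 (median 0.02). Hnf4a and Cdx2, regulators of intestinal identity, were at -0.04 and 0.37, and on the lower side were Maf and Creb3l3, both at -0.74, and Nr1i3 at -0.67.

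Secretory lineages differed from one another. Of 20 Paneth cell genes 15 were below 0 (median -0.46), the lowest being Mptx1, a pentraxin, at 14.02 against 15.01, 14.99 and 14.76 (-1.21). Defa23 was at -0.94, but its Tcf7l2 null channel (16.12) lay within its control channels, which ran from 16.00 to 16.62. Without subtraction of the self-self array the list's median was -0.30. Lyz1, lysozyme, was at 0.03 and Mmp7, which activates defensins, at -0.13; Defa24 read 17.37 within its control channels, 17.12 to 17.57. Defensin genes are near-identical and their probes can cross-hybridise, so members are not independent readings. Goblet genes had a median of -0.01. Within them Muc3, a membrane mucin that enterocytes also make, was at -1.30 (second probe -0.52) and Muc2, the gel-forming mucin, at -0.60. Clca1 was at -0.58, but its Tcf7l2 null channel (15.92) lay within its control channels, which ran from 15.82 to 16.32. On the higher side were Klk1 at 0.69 and Creb3l1 at 0.47. For tuft cells the median was 0.02, and Dclk1 lay farthest from 0 at -0.65.

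Enteroendocrine hormone and granule genes had a median of -0.01, with 9 above 0 and 10 below. Ghrl, the ghrelin precursor, read 11.38 with no control channel above 10.48 (1.17) and Gcg, the proglucagon gene, 8.34 against 7.39, 7.49 and 7.50 (0.96). Both were above every control channel, while Nts and Sct were at -0.62 and -0.47 and Chga, a granule protein of the whole lineage, at -0.29. Among secretory lineage factors Neurog3, which starts enteroendocrine fate, was at 0.94, Foxa2 at 0.76 and Foxa3 at 0.69, whereas Atoh1 was at -0.07 and Spdef at 0.07. Sox4 at 1.39 and the Notch target Hes1 at 1.08 rest mainly on the self-self array, where they read -0.78 and -0.83: on the Tcf7l2 null array alone they were 0.61 and 0.26, and Hes1 was not above all control channels. Other Notch components had small values (list median 0.14), Notch3 at 0.65 and Jag1 at -0.47 being the widest apart from Hes1.

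Keratins and genes of fetal or regenerating epithelium included several of the higher values. Krt8 and Krt18, the keratin pair of simple epithelia, were at 1.63 and 1.48. Krt8 read 17.79 against 16.16, 16.89 and 16.88 and Krt18 17.38 against 15.45, 16.57 and 16.13, so part of each ratio came from a low dsGFP channel on the same array. Krt15, Krt7 and Krt19 were at 1.26, 0.97 and 0.89, Krt20, a keratin of differentiated cells, at 0.25, and the pore-forming claudin Cldn2, a crypt claudin, at 1.11. Of 18 genes of fetal or regenerating epithelium 16 were above 0 (median 0.48): Olr1 at 1.19, Ccn1 at 1.01, Ly6d at 0.96, Clu at 0.86 and Il1rn at 0.82. Ly6a, often used as the marker of this state, was at 0.12.

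**Figure D3:**
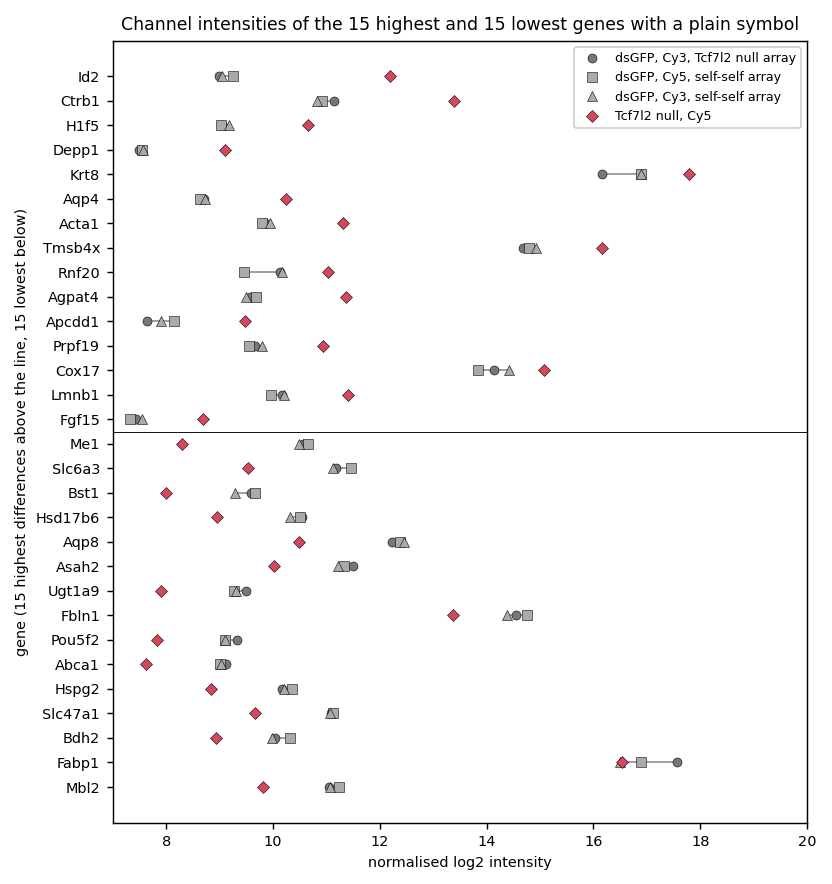
Normalised log2 intensity in each of the 4 channels for the 15 genes with the highest and the 15 with the lowest differences among genes with a plain current symbol; the diamond is the Tcf7l2 null channel and the joined grey symbols the 3 dsGFP channels. For Id2 and Me1 the diamond stands far outside the grey symbols (12.19 against at most 9.24, and 8.29 against at least 10.48), while for Fabp1 (16.53) it lies among them and for Rnf20 and Krt8 the grey symbols spread widely.

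Beyond these lists, the highest differences after Id2 included Ctrb1, a pancreatic chymotrypsinogen, at 13.40 against 11.15, 10.92 and 10.82 (2.16). It stood alone among 10 measured genes of pancreas, stomach and liver, whose median was -0.09 with Cela1 at -0.22 and Cel at -0.10. Depp1, a gene induced by FOXO factors, was at 1.64, Acta1, skeletal actin, at 1.62, Agpat4, an acyltransferase, at 1.60 (second probe 1.49), Prpf19, a splicing factor, at 1.52, and Fgf15, the ileal hormone induced by bile acids, at 1.48. For Depp1 and Fgf15 the dsGFP channels were dim, from 7.49 to 7.56 and from 7.32 to 7.54. The lowest Cy3 signal well above background on the Tcf7l2 null array was 7.02. Rnf20 and Cox17 had differences of 1.61 and 1.50 that a second probe of each gene did not share (-0.13 and -0.12).

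After Me1 the lowest genes with a plain symbol, leaving out those already given with their lists, were Slc6a3, a dopamine transporter, at -1.98, Bst1, an ADP-ribosyl cyclase of the cell surface that marks Paneth cells, at -1.96, Hsd17b6, a steroid dehydrogenase, at -1.77, Aqp8, a water channel, at -1.66, Fbln1 and Hspg2, matrix proteins, at -1.53 and -1.48, Pou5f2 at -1.49, Slc47a1, a drug and cation exporter, at -1.46, Bdh2 at -1.45 and Mbl2, a mannose-binding lectin, at -1.41. For Slc6a3 the Tcf7l2 null channel read 1.65 below its dsGFP partner (ratio -1.65), and the self-self ratio was 0.33. Of the 96 higher genes 35 had more than 1 measured probe, and in 31 all probes were above 0; of the 106 lower genes 27 had, and in 25 all probes were below 0. Only 10 and 7 of them had every probe past 2-fold.

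The 250 bases before the start of Id2 (GRCm38.p6 chr12:25096093-25096342, minus strand) are shown as those of the gene with the largest difference, with CCAAT on either strand in capitals:
Id2: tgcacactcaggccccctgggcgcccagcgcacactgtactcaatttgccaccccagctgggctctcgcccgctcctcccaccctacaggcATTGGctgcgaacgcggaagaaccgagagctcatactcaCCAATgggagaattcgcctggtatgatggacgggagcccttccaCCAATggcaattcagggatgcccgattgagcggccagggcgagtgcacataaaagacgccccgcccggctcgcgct
The window held CCAAT letters at 159, 120 and 76 bases before the start, with no overlap with another motif, and no TCF/LEF letters. TCF/LEF letters were in 8 of 64 promoters listed for the 2-fold higher genes (12.5%) and in 9 of 69 for the lower genes (13.04%), against 6.31% of the promoters of measured genes and 8.77% of all promoters. Among the holders were Tmsb4x, Ncl and Ghrl on the higher side and Mptx1 and Ggt1 on the lower. The shares were alike in both directions, and no test was made.

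Some genes were well above background in only 1 channel of the Tcf7l2 null array, so that only a bound can be given: the mean of the bright channel against the higher of the dim spot and the lowest signal among probes well above background. Only genes with a plain symbol whose probes were all dim in the other channel were counted. In 319 genes the bright channel was Tcf7l2 null and in 538 it was dsGFP, with a bound of at least 2-fold for 2 and 0 probes. Of all spots other than controls on this array, 54.4% were well above background in the Tcf7l2 null channel and 55.0% in the dsGFP channel. On the self-self array the shares were 54.9% in Cy5 and 53.3% in Cy3, so the counts are not read as genes gained or lost. These bounds are for the Tcf7l2 null array alone, with no self-self array subtracted. Among the largest on the higher side were at least 2.19-fold for Cstf2t, at least 2.08-fold for Sftpd, a surfactant lectin, at least 1.81-fold for Rasgef1a and at least 1.78-fold for Gsc. On the self-self array these probes, at least 1 channel of each being dim there, read 0.25, 0.08, 0.22 and 0.39, so the bounds do not carry over to the difference used elsewhere. On the lower side Plg, plasminogen, was at least 1.53-fold lower and Cdh3 at least 1.33-fold lower, followed by Trim17, Olfr266 and Gpr83 at 1.32, 1.32 and 1.30. Their probes read -0.16, -0.10, -0.25, 0.09 and -0.20 on the self-self array, so these bounds do not carry over either. For Plg the Cy3 control was well above background on only 2 of the 4 arrays of experiment 2.

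Cell types other than epithelium were checked through their markers. All 10 defining markers of intestinal epithelium were measured, among them Epcam, Cdh1 and Vil1, with differences of 0.08, 0.20 and -0.06. Their median was 0.23, with 7 above 0, 2 above 0.5 and Krt8 highest at 1.63. This median was 0.08 without subtraction and 0.02 with median centring. In the other experiment's self-self array minus this one, which holds no Tcf7l2 null RNA, it was 0.29. Of 17 fibroblast markers 3 were well above background (Vim, Col1a2 and Acta2, from -0.08 to 0.18), and of 12 leukocyte and endothelial markers 4 were, from -0.18 to 0.07; Col1a1, Pdgfra, Ptprc and Pecam1 were not. In bulk RNA, fewer cells of a type and less RNA per cell cannot be told apart, for enterocyte, Paneth and stem cell genes alike.

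The other experiment 2 arrays share the dsGFP control and the same self-self subtraction with this one, so their values are given side by side only. The arrays are called by their labels, which the Ascl2 probe goes against: minus the self-self array it read -0.94 in the organoids labelled Tcf7l2 null with Ascl2 overexpressed and -0.69 in those labelled Ascl2 overexpressing, below control on both. Whether that probe reads the transduced construct is not known here. The Tcf7l2 probes read 0.06, -0.05 and -0.20 on the first of these arrays and do not check its deletion either. In the organoids labelled Tcf7l2 null with Ascl2 overexpressed the median of the MCM genes was -1.90, of mitosis genes -1.24 and of stem cell markers -1.12, where the Tcf7l2 null organoids had 0.69, 0.61 and 0.41. In the organoids labelled Ascl2 overexpressing these medians were -0.21, -0.08 and -0.49. Brush border hydrolases had medians of -0.53 in Tcf7l2 null, 0.59 in those labelled with both changes and -0.14 in those labelled with Ascl2 alone. Sugar transport genes had -0.69, 0.03 and -0.68, and Paneth genes -0.46, -1.21 and -1.13. Genes of tuft cells had 0.02, 1.01 and 0.65.

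Some single genes showed the same spread. Olfm4 was at 0.79, -5.10 and -1.98 on the 3 arrays in that order, Lgr5 at 0.38, -2.23 and -1.92, Id2 at 2.99, -0.43 and 0.96, and Me1 at -2.45, 0.85 and -0.82. Ctrb1 was at 2.16, -1.88 and -0.20. In contrast Aqp4 was at 1.62, -0.48 and 1.49, Agpat4 at 1.60, 1.90 and 2.98, and Ghrl at 1.17, 1.54 and 0.81. Several extreme genes read alike on the Tcf7l2 null array and the array labelled Ascl2 overexpressing. Among them were Bst1 (-1.96 and -1.87), Aqp8 (-1.66 and -1.57), Abca1 (-1.48 and -1.45), Hspg2 (-1.48 and -1.53) and Krt8 (1.63 and 1.59). Slc6a3 (-1.98 and -0.45) and Bdh2 (-1.45 and 0.74) did not. Genes of fetal or regenerating epithelium had medians of 0.48 and 0.47. The shared values are not particular to the Tcf7l2 null organoids. Thus Olfm4, Lgr5 and Id2 were higher than control in Tcf7l2 null organoids and lower in the organoids labelled with both changes, each condition being 1 array.

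**Figure D4:**
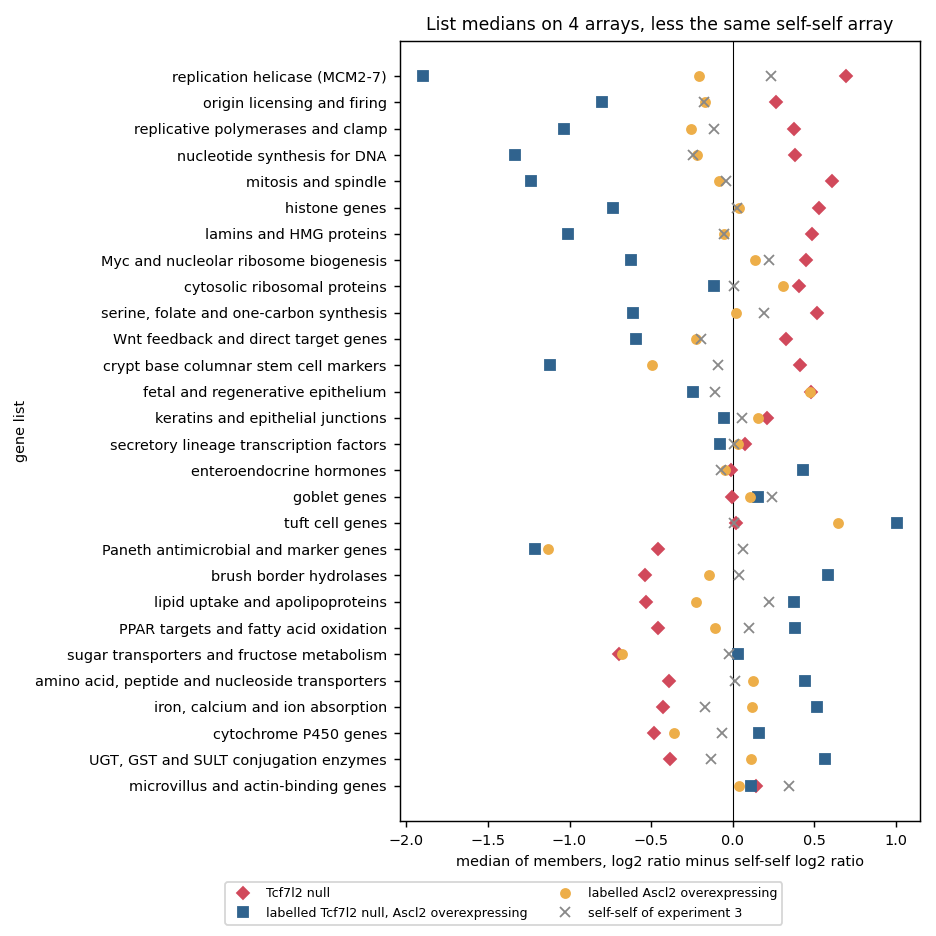
Median difference of 28 gene lists on the Tcf7l2 null array, the 2 arrays of the same slide labelled as Ascl2 overexpressing (where the Ascl2 probe read below control) and the self-self array of experiment 3, each minus the self-self array of experiment 2. For MCM genes the Tcf7l2 null median is 0.69, that of the array labelled with both changes -1.90 and the purely technical one 0.24, and for brush border hydrolases they are -0.53, 0.59 and 0.04.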

How the data were processed

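RNA was hybridised to Agilent 4x44K mouse arrays with 2 colours from 500 ng of total RNA per sample, per the labels' protocols. Per the file headers, the deposited spot intensities were read by the authors with Agilent Feature Extraction 10.5.1.1; here each channel's median over a spot's pixels and over its local background was taken. The deposited log10 ratio (Cy5 over Cy3, after the scanner software's own background and dye correction) and the authors' deposited table of log2 ratios, which on these 2 arrays has the scale and direction of the scanner ratio without further centring, served as alternatives. Normexp background correction (offset 50) and loess within each array were run in R 4.3.3 with limma 3.58.1; the script was tested on simulated data, where changes of dim spots came out too small. Control and outlier spots were left out, and no spot was saturated. Channel intensities were scaled between arrays on mean intensity (Aquantile).

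Of 41174 probes 20621 were well above background in all 4 channels, and the brightest stood for each of 14432 genes, 11844 of them with a plain current symbol. RefSeq's table named 26918 probes by their own accession and 111 by another; 14145 kept the array's name. Of the measured genes 9855 matched its promoter table. The genes named were the 15 highest and 15 lowest with a plain symbol, the extremes and first members of each list, and the largest bounds; a few that these rules or lists hold are not reported here. Gene lists and the comparison were chosen with earlier results of these data known. A self-self array measures technical spread, not the spread between cultures. Precision is limited by having 2 arrays. Loess sets most genes near 0, so a shift of all genes cannot be seen.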

Additional observations from a re-analysis of the deposited data

How the results depend on the processing

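Under 9 other settings (no subtraction, both self-self arrays subtracted, the scanner software's ratio, the authors' deposited values, median centring, no background correction, offset 16, a looser filter, the median over a gene's probes) the counts past 2-fold were within 1.5 times of 96 and 106, except that the scanner software's ratio gave 204 and 310 and the authors' deposited values 208 and 317; the cause was not tested. The 96 genes stayed above 0 in every setting, save 2 with both self-self arrays subtracted, and the 106 stayed below 0. Without subtraction 50 and 62 of them were still past 2-fold. The share of higher calls fell from 47.5% to 39.7% and 39.6% with those 2 ratios and to 38.0% with median centring. It was 42.6% with offset 16, 43.1% without subtraction and from 46.8% to 50.5% in the other settings. No value reversed among lists with a median beyond 0.19 or named genes past 2-fold. A list median counted as moved if it shifted by more than the 0.19 SD over genes of the self-self ratio: ribosomal proteins had 0.19 with median centring, lipid absorption -0.76 with both self-self arrays, ion absorption -0.20 with the median over probes, epithelial markers 0.02 with median centring, and microvillus genes -0.13 without subtraction and -0.13 with both arrays. Of 513 values for named genes 122 moved by this measure. Rnf20 went down to 0.74, Cox17 to 0.29 and Hes1 to 0.26 at the lowest. Fgf15, Depp1 and Gcg, with dim dsGFP channels, went up to 2.65, 2.48 and 1.80 at the highest. No setting that leaves out a replicate could be run with 1 array. No paired analysis was possible because each group of the comparison has 1 array and the result comes from no test.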

Other observations

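Distal intestinal genes did not move as a block in the Tcf7l2 null organoids. Fgf15 was at 1.48 and Slc10a2, the ileal bile acid importer, at 0.41, while Slc51a and Slc51b, the bile acid exporter pair, were at -0.96 and -0.82, their regulator Nr1h4 (FXR) at -0.62 and Hoxb6 at -0.89. The median of the 13 regional genes measured was -0.01.

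Stress and metabolic lists lay near 0: the unfolded protein response at 0.05, interferon-stimulated genes at 0.05, cholesterol synthesis at -0.03, glycolysis at -0.09 and the respiratory chain at -0.12. Within glycolysis Pfkfb4, a regulator of fructose bisphosphate levels, was at -1.38 and Ddit4 at 0.79. Of 22 p53 targets 15 were above 0 (median 0.25), with Cdkn1a at 0.24 and Mdm2 at -0.14. Among BMP and TGF-beta genes Bmp7 was at 0.74, with a second probe at 0.96, and the BMP targets Id1 and Id3 were at 0.31 and 0.21, far from Id2 at 2.99. Ephrin receptors Epha4 and Epha2 were at 0.64 and 0.58 and the ligand Efnb2 at -0.38.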
